A study of Mus musculus with 2 samples.

Results

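The genes examined here were 57 mouse genes of the basic helix-loop-helix (bHLH) class. Most encode factors that specify a cell lineage, and the rest include the Hes and Hey repressors and the E proteins and Id proteins that act with the lineage factors. They were chosen by name, with earlier results of these data known, and all 57 are among the 21896 protein-coding genes of the RefSeq gene table. A gene was counted as marked when the authors' annotation of H3K27me3 peaks joined at least 1 peak to its symbol, which that annotation does within 5 kb of a gene. Of the 57 genes, 36 (63.2%, 95% Wilson interval 50.2 to 74.5) were marked. Over all protein-coding genes the share was 20.7%.

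The peaks came from chondrocytes taken from rib cartilage of wild-type CD1 mice at birth, which were cultured overnight and received no treatment. Chromatin was digested enzymatically and precipitated with an antibody to histone H3 trimethylated at lysine 27 (H3K27me3), and 1 library of the precipitated DNA (ChIP) was compared with 1 library of input DNA from the same kind of cells. The number of mice behind each library was not given in the sources used here. The antibody tags of both libraries contradict their titles, and the libraries were grouped by title. After filtering, the ChIP library held 17237574 tags and the input library 17004082. With 1 library in each group there was no replicate and no test across samples, the q-values are those of the peak caller for this pair of libraries, and the intervals given here cover counting error only. The list held 19359 peaks, each with a pileup (the mean number of ChIP fragments over it), a fold enrichment over input (a ratio) and a mean q-value. No chondrocyte marker of 7 (Col2a1, Acan, Sox9, Col9a1, Col11a1, Matn1 and Comp) was marked. Of 4 muscle genes 3 were marked (Myh3, Acta1 and Ckm, without Des), and of 3 neuronal genes 2 (Tubb3 and Snap25, without Map2). The Wilson interval for 0 of 7, 0 to 35.4%, held the 20.7% of all protein-coding genes. It also overlapped the interval for 3 of 4, 30.1 to 95.4%.

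bHLH proteins bind DNA as dimers at E boxes. Most lineage factors of the class pair with a broadly expressed E protein, Id proteins capture E proteins in dimers that cannot bind DNA, and Hes and Hey proteins are repressors that Notch signalling often induces. H3K27me3 is laid down by Polycomb repressive complex 2 (PRC2) and is known to lie over genes of lineages that a cell has not taken.

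The neural, mesoderm, muscle and Hes and Hey genes were compared with the E protein and Id genes in the share marked. Of these 43 genes, 34 (79.1%, 64.8 to 88.6) were marked, and of the 7 E protein and Id genes none was. The interval of the latter share, 0 to 35.4%, held the 20.7% of all genes. The shares differed by 79.1 percentage points, with a 95% Newcombe interval from 40.9 to 88.6. With only peaks of fold enrichment of at least 3.5 the difference was 37.2 points, and its interval (-0.476 to 52.1) took in 0. Without that limit, but with the blood, epithelial and Dec genes added to the 43, it was 72.0 points (34.0 to 82.5). Genes are not replicates, and several of these genes are neighbours or paralogues. By class, 18 of 20 neural genes (90.0%, 69.9 to 97.2), 9 of 10 mesoderm genes (90.0%, 59.6 to 98.2), 3 of 4 muscle genes (75%, 30.1 to 95.4) and 4 of 9 Hes and Hey genes (44.4%, 18.9 to 73.3) had a peak. The interval of the Hes and Hey genes overlapped those of the other classes and held the 20.7% of all genes. Of the 5 blood and epithelial genes 2 were marked, and neither of the 2 Dec genes was.

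The gene start lay under a peak in 22 of 57 genes (38.6%, 27.1 to 51.6), against 4.45% of all protein-coding genes. It was covered in 10 neural, 6 mesoderm, 1 muscle, 3 Hes and Hey and 2 blood and epithelial genes, and in no E protein, Id or Dec gene. The intervals for the 7 E protein and Id genes (0 to 35.4%) and the 2 Dec genes (0 to 65.8%) both held the 4.45%. A peak of 10 kb or more was joined to 17 genes (29.8%, 19.5 to 42.7), against 2.63% of all genes. Of these, 11 were neural and 4 were mesoderm genes. No muscle gene of 4 had such a peak, and the interval of that share, 0 to 49.0%, held the 2.63%. A peak overlapped the gene body in 32 genes (56.1%), against 14.2% of all genes, and 14 genes (24.6%) lay wholly under 1 peak, against 0.804% of all genes. The median length was 3.29 kb for the 57 genes and 17.1 kb for all protein-coding genes, and the part of gene length in these shares was not tested.

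**Figure D1:**
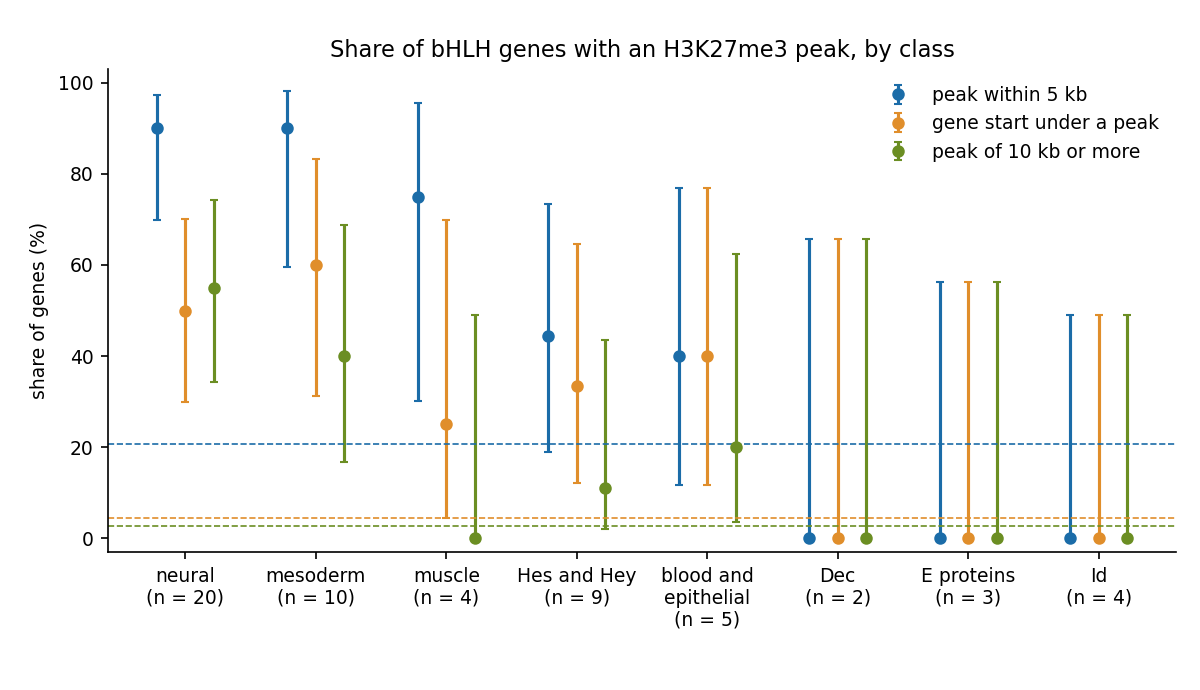
Share of genes (percent) in each bHLH class with an H3K27me3 peak within 5 kb (blue), a peak over the gene start (orange) and a peak of 10 kb or more (green), with 95% Wilson intervals as bars and the shares over all protein-coding genes (20.7%, 4.45% and 2.63%) as dashed lines in the same colours. The neural and mesoderm classes both reach 90.0% for a peak within 5 kb, while the Dec, E protein and Id classes are at 0 for all 3 measures with wide intervals.

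The stretches before 4 gene starts are printed to set marked against unmarked genes at high and at low CpG content, since H3K27me3 is often found at CpG-rich promoters. They are the 250 bases before the RefSeq start on GRCm38.p6, written 5′ to 3′ on the strand of the gene, with each CG in capitals. Neurog1 (chr13:56252181-56252430, minus strand) lay under a peak at its start. Id4 (chr13:48260866-48261115, plus strand) had no peak. Olig3 (chr10:19356289-19356538, plus strand) lay under a peak, and Neurod4 (chr10:130280255-130280504, minus strand) had none.
Neurog1: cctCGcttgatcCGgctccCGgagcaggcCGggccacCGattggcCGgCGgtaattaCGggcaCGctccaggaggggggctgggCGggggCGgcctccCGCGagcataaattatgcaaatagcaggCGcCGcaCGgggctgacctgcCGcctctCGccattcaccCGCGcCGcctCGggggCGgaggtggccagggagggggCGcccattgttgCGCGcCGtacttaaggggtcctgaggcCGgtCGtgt
Id4: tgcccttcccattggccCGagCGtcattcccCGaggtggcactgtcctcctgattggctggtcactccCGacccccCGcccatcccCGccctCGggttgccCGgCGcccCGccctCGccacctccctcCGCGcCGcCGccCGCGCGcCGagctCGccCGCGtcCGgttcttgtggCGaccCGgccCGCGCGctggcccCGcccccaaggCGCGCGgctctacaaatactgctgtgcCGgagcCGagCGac
Olig3: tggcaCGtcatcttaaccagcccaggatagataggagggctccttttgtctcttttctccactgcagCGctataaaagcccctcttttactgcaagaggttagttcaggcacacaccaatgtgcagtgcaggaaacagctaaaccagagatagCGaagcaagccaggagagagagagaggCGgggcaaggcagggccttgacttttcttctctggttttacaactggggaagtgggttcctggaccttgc
Neurod4: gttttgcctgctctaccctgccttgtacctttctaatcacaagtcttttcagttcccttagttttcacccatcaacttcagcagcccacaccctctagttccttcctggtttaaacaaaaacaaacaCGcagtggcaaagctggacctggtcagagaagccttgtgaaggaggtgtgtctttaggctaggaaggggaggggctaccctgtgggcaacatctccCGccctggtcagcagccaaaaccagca

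These 250 bases held 29 CG dinucleotides at Neurog1, 35 at Id4, 4 at Olig3 and 2 at Neurod4. The 4 genes were picked as examples of this contrast, and a relation of CpG content to the mark was not tested. RefSeq promoter windows of 300 bases (250 before and 50 after the start) were matched for 40 of the 57 genes, and the first listed window of a gene was used. The start of this window was that of the gene table in 30 genes and lay up to 1547 bp inside the gene in 10. The median was 14.5 CpG (range 2 to 41) over 16 genes with a covered start, 19 (2 to 29) over 11 marked genes with an uncovered deposited start and 19 (3 to 41) over 13 unmarked genes. The ranges of genes with a covered start and of unmarked genes were almost the same, and that of the 11 genes stopped at 29. Atoh7 was counted among the 11, although the start of its RefSeq window lay under a peak. Over 17491 protein-coding genes the median was 13, with quartiles of 3.5 and 24. The 5 E protein and Id genes with a window held 19 to 41 CpG, and the 29 neural, mesoderm, muscle and Hes and Hey genes had a median of 14. The E box CANNTG, searched on both strands, was present in 28 of 40 windows (70.0%) and in 68.8% of all windows. The N box CACNAG, to which Hes proteins bind and which no E box can match, was present in 14 of 40 windows (35%) and in 41.8% of all windows. These matches are letters only and show no binding.

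**Figure D2:**
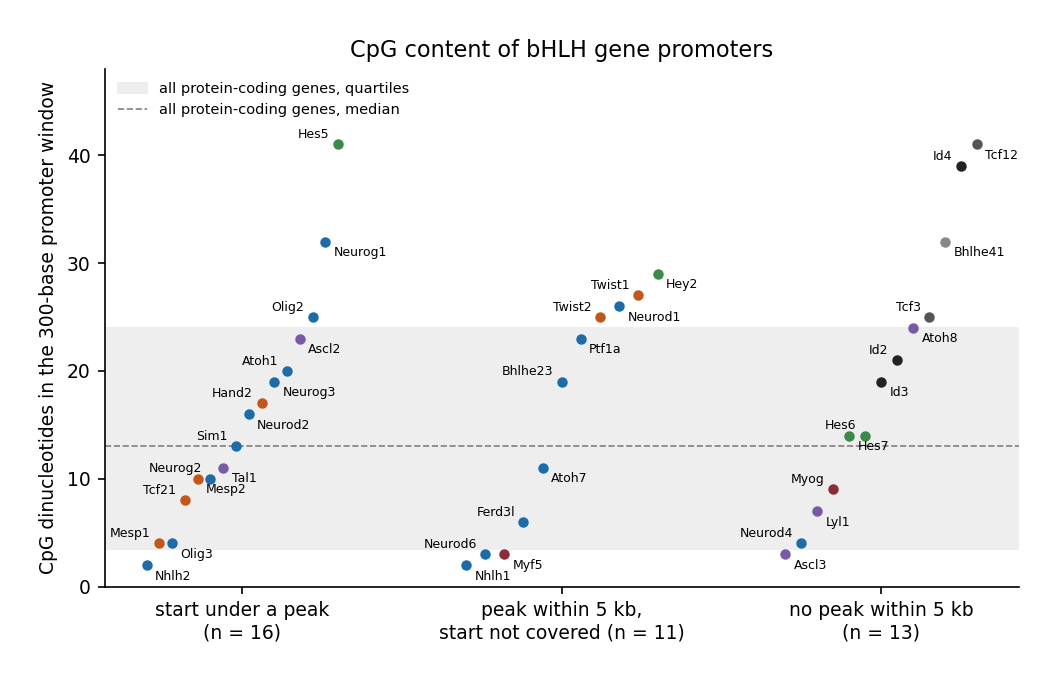
Number of CpG dinucleotides in the 300-base promoter window (vertical axis) of 40 bHLH genes, 1 point per gene, in 3 columns by peak state and spread sideways in order of CpG number (blue neural, orange mesoderm, dark red muscle, green Hes and Hey, purple blood and epithelial, light grey Dec, dark grey E proteins, black Id), with the quartiles of all protein-coding genes as a band and their median as a dashed line. Each column runs from 2 or 3 CpG to 29 or more. The medians are 14.5 for a covered start, 19 for a peak with an uncovered start and 19 for no peak.

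Among the proneural genes, which start neuronal differentiation, all 3 Neurog genes had a covered start. Neurog2, a factor of cortical and sensory neurons, lay under 1 peak of 26.7 kb on chromosome 3 (127620634 to 127647337) with a fold enrichment of 3.69. Neurog1, a factor of cranial sensory neurons, lay under a peak of 20.7 kb (fold enrichment 3.62), with a second peak of 4.25 kb downstream. Neurog3, the factor of endocrine pancreas progenitors, lay under a peak of 11.1 kb with a fold enrichment of 3.73. All 3 gene bodies were covered over their whole length. Atoh1, a factor of hair cells and cerebellar granule neurons, lay wholly under a peak of 16.1 kb, but this peak had a fold enrichment of only 3.29. Atoh7, a factor of retinal ganglion cells, had peaks of 2.98 and 0.690 kb, 169 bp upstream of its deposited start and 624 bp downstream of its end. The upstream peak reached 63099988 on chromosome 10 and covered the start of Atoh7 in the RefSeq gene table, at 63099785.

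The Neurod genes, which act after the proneural genes, ranged from a broad domain to no peak. Neurod2, of cortical and hippocampal neurons, had a covered start under a peak of 12.6 kb (fold enrichment 3.59) and a second peak of 8.57 kb. Neurod1, of neurons and pancreatic islets, had peaks of 7.48 kb (3.47) and 6.56 kb (3.27) that ended 822 bp upstream and began 753 bp downstream of its start. Neurod6, of cortical excitatory neurons, had 4 peaks of 0.882 to 2.62 kb, and none had a mean q-value under 0.05 (0.0595 to 0.0988). Its peak inside the gene had a pileup of 9.86 fragments, the lowest in the list and a value held by 974 peaks. Neurod4, a neuronal differentiation factor, had no peak within 5 kb, and the nearest lay 1328 kb away, the farthest for any of the 57 genes.

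The Olig genes, of oligodendrocyte, motor neuron and dorsal neural tube progenitors, had some of the broadest domains. Olig2 lay under 43.6 kb on chromosome 16 (91204601 to 91248157, fold enrichment 3.66), and its neighbour Olig1 under 21.6 kb (91256062 to 91277694, 3.70). The span of both peaks, 73.1 kb, was covered over 89.2% of its length, with a single gap of 7.90 kb. Olig3, on chromosome 10, lay under 25.6 kb with a fold enrichment of 3.74. The related repressors Bhlhe22 and Bhlhe23 each had a peak on both sides of an uncovered start. At Bhlhe22 the peaks measured 3.94 and 5.72 kb, and at Bhlhe23 2.29 and 7.27 kb.

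Among the other neural genes, Sim1, a bHLH-PAS factor of hypothalamic neurons, had a covered start under 29.6 kb (fold enrichment 3.54), although this peak took in only 20.3% of the deposited gene. At its paralogue Sim2 the nearest peak lay 196.4 kb away. Nhlh2, a neuronal factor of the hypothalamus, lay wholly under 19.6 kb (3.59), whereas the peak of 6.21 kb at Nhlh1 (3.21) began 807 bp downstream of the start. These 2 pairs of paralogues thus differed in cover. Ptf1a, a factor of pancreatic acinar cells and inhibitory neurons, had 3 peaks summing to 23.1 kb that left its start uncovered. Ferd3l had 4 peaks of 0.767 to 1.34 kb, all with a mean q-value over 0.05 (0.0502 to 0.0893).

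The mesoderm genes included the widest domain of all 57 genes. Hand2, a factor of heart and limb bud, lay under 51.2 kb on chromosome 8 (57306478 to 57357675, fold enrichment 3.70). Hand1, of heart and placenta, lay under 21.6 kb, whose fold enrichment of 3.75 and mean q-value of 0.00232 were the highest and the lowest among the peaks of the 57 genes. Tcf21, of visceral mesenchyme and epicardium, lay under 20.6 kb with a fold enrichment of 3.67. All 3 genes were covered from start to end. Mesp1, of nascent cardiac mesoderm, lay wholly under 8.37 kb (3.47). The peak at Mesp2, of somite segmentation, measured 1.70 kb, covered the start and 56.3% of the gene, and had the lowest fold enrichment of the 62 peaks (2.94). Msc, a repressor in branchial muscle, had 2 peaks of 1.13 and 1.37 kb, the first over its start.

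The start was not covered at the remaining marked mesoderm genes. Twist1, a factor of mesenchyme and cranial sutures, had no peak over its body, and peaks of 2.20 kb and 12.8 kb lay 1426 bp upstream and 3725 bp downstream of its start. Twist2, of dermal mesenchyme, had 3 peaks of 0.607 to 2.38 kb, of which the narrowest lay 2880 bp upstream and the other 2 took in 8.91% of the deposited gene. Tcf15, of the somite, had 1 peak of 1.89 kb inside and 1 of 0.349 kb 4044 bp upstream. Scx, the factor of tendon and ligament progenitors, was the only mesoderm gene without a peak within 5 kb, with the nearest at 54.9 kb. Ferd3l and Twist1 are neighbours on chromosome 12, and 7 peaks covered 52.2% of the 50.9 kb across both.

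The skeletal muscle factors differed among themselves. Myod1 lay wholly under a peak of 5.16 kb (chromosome 7, 46374809 to 46379971, fold enrichment 3.51), had 2 further peaks within 5 kb, and had 9 peaks in the gene and 25 kb on each side. Myf5 and Myf6 were both joined to 1 and the same peak of 370 bp (chromosome 10, 107488473 to 107488842, fold enrichment 3.29, q-value 0.0228). It lay 2339 bp upstream of Myf5 and 4019 bp downstream of Myf6, outside both genes. Myog, a factor of myoblast differentiation, had its nearest peak at 92.3 kb. Counting Myf5 and Myf6 as 1 locus left the difference from the E protein and Id genes at 78.6 points. Myf6 was also the gene nearest to the limit of the annotation, since its only peak lay 4.02 kb away, and the nearest peak on the outer side of the limit lay 10.4 kb from Hes1.

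Of the Hes and Hey genes, Hes5, a Notch-induced repressor of neural progenitors, had the widest peak, 12.7 kb with a fold enrichment of 3.28. It ran from upstream into the first part of the gene and took in 23.4% of the body. Hes2 lay wholly under 6.12 kb (3.45) and Hes3, of neural progenitors, had a covered start under 7.20 kb (3.60). Hey2, a repressor of heart and vessel, had 3 peaks with its start between the 2 wider ones, of 5.07 kb (3.52) and 2.67 kb (3.69). The unmarked members were Hes1, Hes6, Hes7, Hey1 and Heyl. Their nearest peaks lay at 10.4, 66.2, 28.1, 19.3 and 23.7 kb. Around Hes1, a general Notch target, 6 peaks covered 16.1% of the gene and 25 kb on each side, more than around the marked Hes2 (13.7%) and Hey2 (14.7%). No Hes or Hey gene had a peak as wide as those at Olig1, Neurog1 or Hand1.

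In the blood and epithelial class, Tal1, of blood stem cells, had a covered start under 20.03 kb (fold enrichment 3.72). Ascl2, of trophoblast and intestinal stem cells, had a covered start under 4.33 kb (3.57). Lyl1, Ascl3 and Atoh8 were unmarked, with their nearest peaks at 136.5, 43.3 and 52.5 kb. The Dec genes Bhlhe40 and Bhlhe41, repressors of the circadian clock, had their nearest peaks at 90.1 and 381 kb.

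Among the E protein genes the nearest peaks lay at 13.5 kb for Tcf3, 43.0 kb for Tcf12 and 504 kb for Tcf4. For the Id genes the distances were 70.6 kb at Id1, 519 kb at Id2, 62.3 kb at Id3 and 52.4 kb at Id4. Peaks covered 5.57% of the surroundings of Tcf3 (the gene and 25 kb on each side) and none of those of the other 6. Absence from the list means no region above the threshold at this depth, where the lowest pileup of a peak was 9.86 fragments, and not absence of the mark. Of the 21 unmarked genes, 3 had a peak within 20 kb and 15 within 100 kb.

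**Figure D3:**
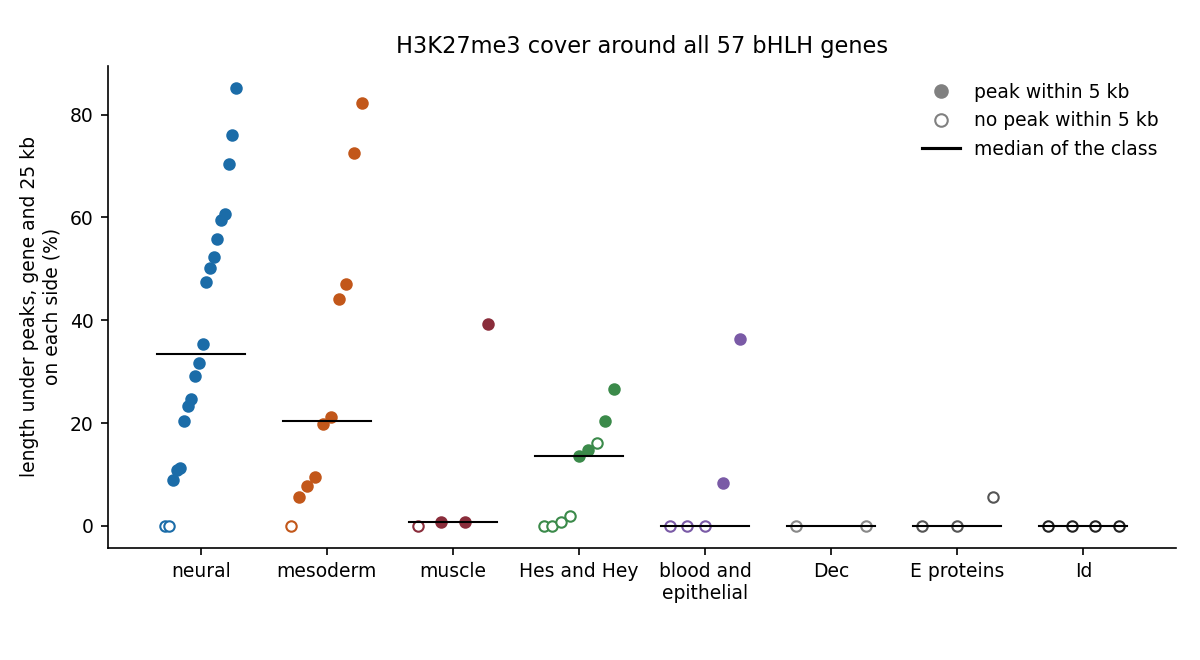
Percent of the gene and 25 kb on each side that lay under H3K27me3 peaks (vertical axis) for all 57 bHLH genes by class, 1 point per gene, filled where a peak lay within 5 kb, with the class median as a line. Olig2 (85.2%) and Hand2 (82.3%) are highest, the neural median is 33.5%, and all 4 Id genes are at 0.

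Over all 57 genes the median cover of these surroundings was 11.2%, and over all protein-coding genes it was 0. The class medians were 33.5% for neural, 20.4% for mesoderm, 13.7% for Hes and Hey and 0.699% for muscle genes. The muscle median rests on the 1 peak that Myf5 and Myf6 share, and Myod1 had 39.3%. Within the neural class the cover ran from 0 at Neurod4 and Sim2 to 85.2% at Olig2, so the spread within a class was wider than the differences between class medians. Among the marked genes, the widest peak had a median of 7.92 kb (order-statistic interval 5.16 to 16.1, range 0.370 to 51.2). Over all 4534 marked protein-coding genes it was 2.63 kb (2.55 to 2.71). The median was 11.9 kb (6.21 to 21.6) in 18 neural, 8.37 kb (1.70 to 21.6) in 9 mesoderm and 6.66 kb (5.07 to 12.7) in 4 Hes and Hey genes, and these 3 intervals overlapped. In the 3 marked muscle genes, of which 2 share a peak, it was 0.370 kb with a range up to 5.16 kb, below the neural interval.

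The marked genes had 62 peaks in all, which summed to 0.516 Mb and made up 1.10% of the length under all peaks. Of the 36 genes, 17 had 1 peak, 13 had 2, 4 had 3 and 2 had 4. Some 10 of the 62 peaks were joined to more than 1 gene, so that a peak counted here can also belong to a neighbour. The median fold enrichment was 3.36 (3.21 to 3.47, range 2.94 to 3.75), against 3.16 over all peaks. The 22 peaks over a start had a median fold enrichment of 3.59 and a median width of 17.8 kb, and the other 40 had 3.20 and 1.86 kb. Wide peaks had a higher fold enrichment over the whole list too. Peaks of 10 kb or more had a median of 3.64 for the 18 at these genes and of 3.497 for all 670, and narrower peaks had 3.24 and 3.15. The mean q-value was over 0.05 in 15 of the 62 peaks. With only peaks of fold enrichment of at least 3.5, 18 of 57 genes (31.6%) were marked, against 5.35% of all genes, and a limit of 0.01 on the mean q-value also left 18, against 5.9%.

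**Figure D4:**
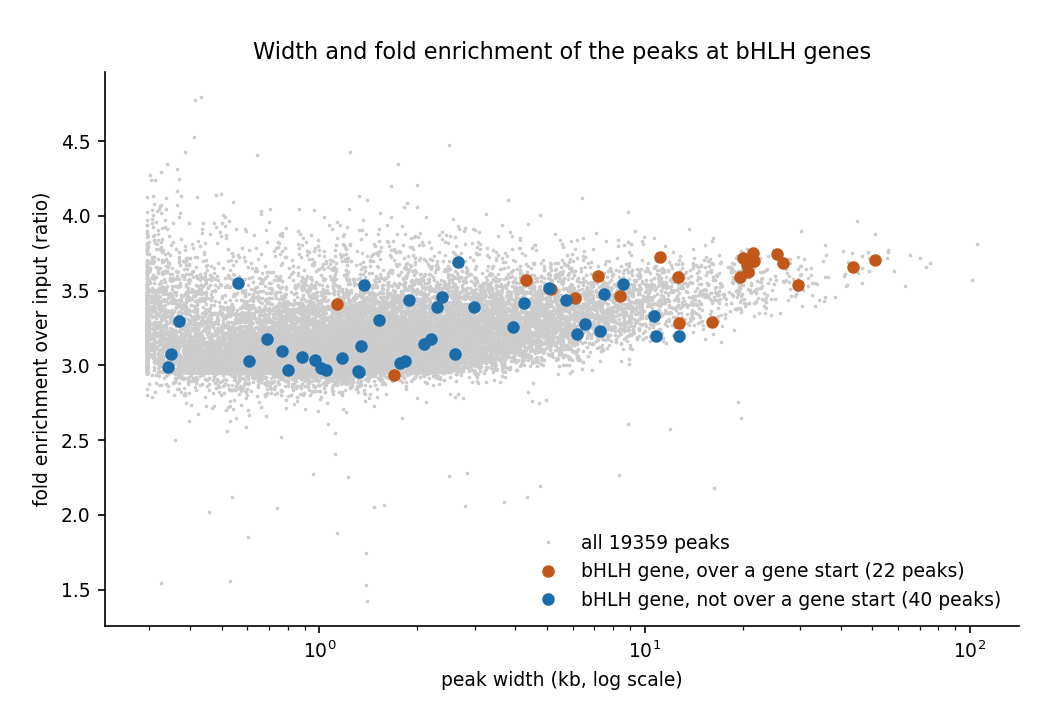
Width (horizontal, kb, log scale) and fold enrichment over input (vertical, ratio) of the 62 peaks at bHLH genes, orange where the peak covered a gene start and blue where it did not, over all 19359 peaks in grey. The 22 orange points have a median width of 17.8 kb and the 40 blue points of 1.86 kb, and the bHLH peaks lie between 2.94 and 3.75 in fold enrichment.

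The starts of the 36 marked genes fell into 4 states. The start was covered in 22 (61.1%, 44.9 to 75.2), uncovered with a peak within 5 kb on both sides in 11 (30.6%, 18 to 46.9), on 1 side only in 2 (Myf5 and Nhlh1) and without a peak within 5 kb of the start in 1 (Myf6). Over all 4534 marked protein-coding genes, 21.5% of starts were covered, 17.5% lay between peaks, 39.5% had a peak on 1 side and 21.5% had none within 5 kb. As a share of all genes, marked or not, starts between peaks made up 19.3% of the 57 and 3.63% of all protein-coding genes. The 11 genes were Neurod1, Neurod6, Atoh7, Bhlhe22, Bhlhe23, Ptf1a, Ferd3l, Twist1, Twist2, Tcf15 and Hey2, of which Atoh7 counts as covered by its RefSeq start. The gap around the start had a median of 1574 bp. It was 1196 bp at Bhlhe23, 1240 bp at Atoh7, 1310 bp at Neurod6, 1406 bp at Ptf1a, 1423 bp at Ferd3l, 1574 bp at Neurod1 and 1958 bp at Bhlhe22. The gap was wider at Hey2 (2368 bp), Twist2 (3701 bp), Twist1 (5150 bp) and Tcf15 (5892 bp). All 7 neural genes thus had narrower gaps than the other 4. No 2 peaks of the whole list lay closer than 1177 bp, so a shorter uncovered stretch could not appear as a gap. When a peak within 1 kb of the start was counted as cover, 54.4% of the 57 starts were covered in place of 38.6%, against 8.95% of all protein-coding genes under the same rule.

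**Figure D5:**
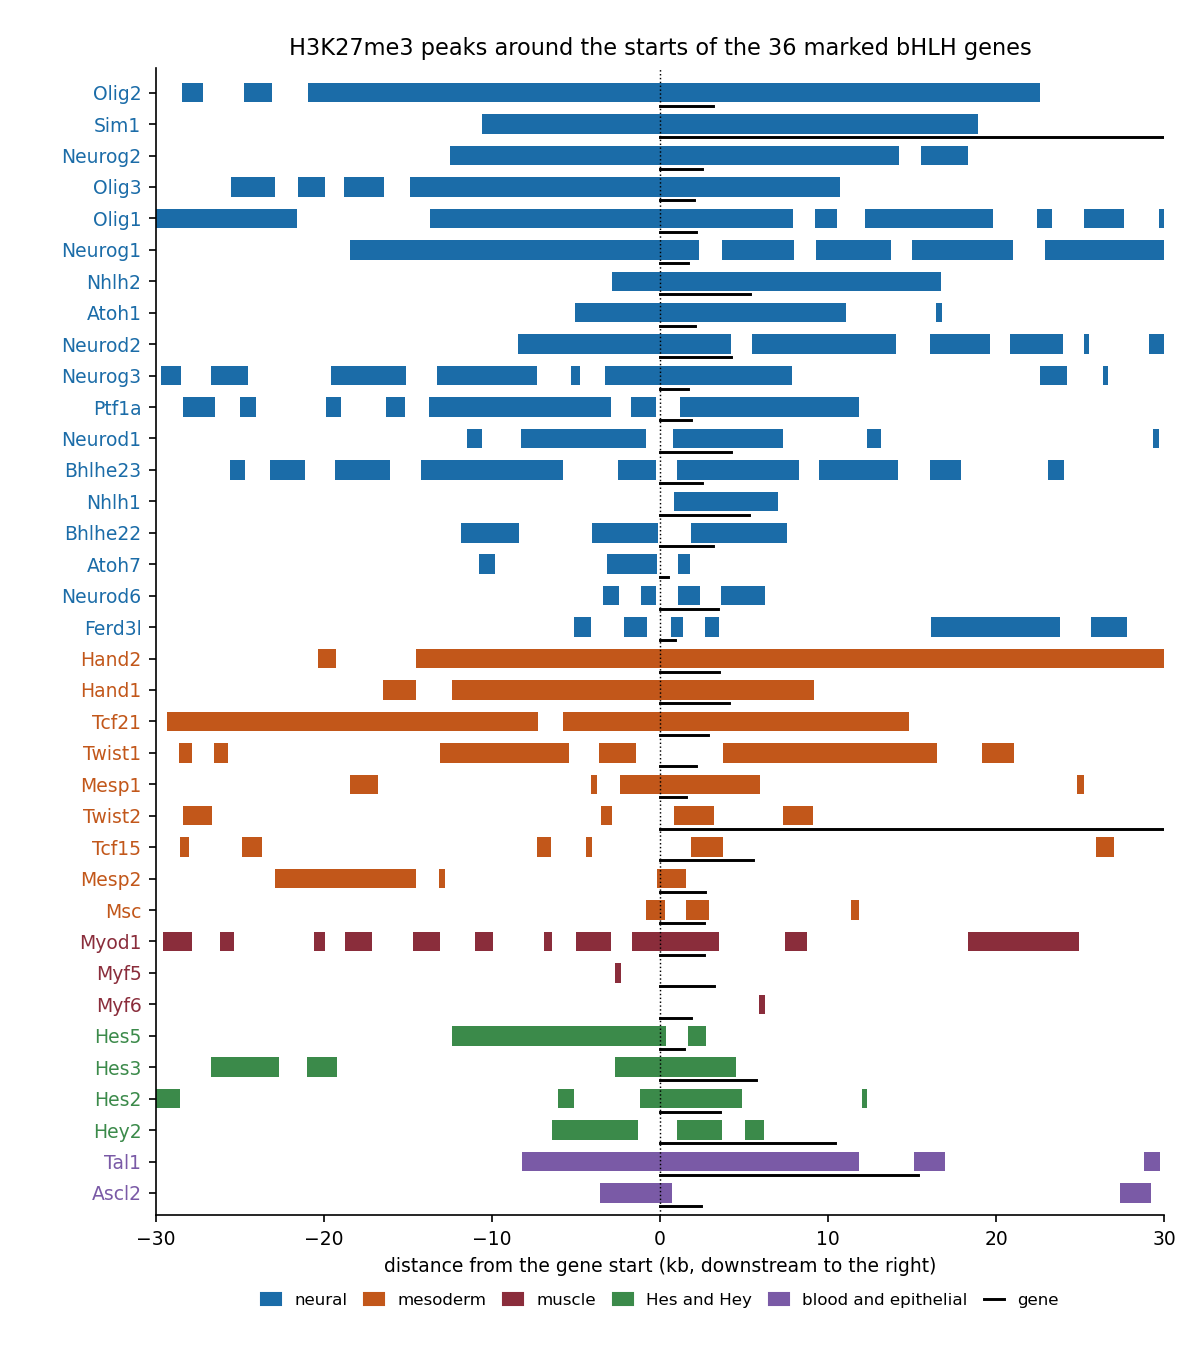
H3K27me3 peaks (coloured bars) within 30 kb of the starts of the 36 marked bHLH genes, 1 line per gene, by distance from the gene start (kb, downstream to the right), with the gene as a black line and all listed peaks of the window drawn, including those joined to other genes or to none. Starts at the dotted line lie inside a bar in 22 genes and between bars on both sides in 11, with the broadest bars at Hand2 (51.2 kb) and Olig2 (43.6 kb).

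Other bHLH genes, not among the 57, were set beside them from a list. Of 47, 18 (38.3%, 25.8 to 52.6) were marked. Of 15 with tissue-restricted expression, 10 (66.7%, 41.7 to 84.8) were marked, namely Ascl4, Ascl5, Bhlha9, Figla, Helt, Msgn1, Npas1, Npas3, Npas4 and Tal2, and 5 (33.3%, 15.2 to 58.3) had a covered start, against 4.45% of all genes. Of 32 broadly expressed bHLH and bHLH-zip genes, 8 (25%, 13.3 to 42.1) were marked (Ahr, Ahrr, Arnt, Arnt2, Mycl, Mycn, Srebf2 and Usf1), and none had a covered start. The interval of the share marked held the 20.7% of all genes, and that of the covered starts, 0 to 10.7%, held the 4.45%. Of the 47, 1 (2.13%) had a peak of 10 kb or more, against 2.63% of all genes. It was Helt, a factor of midbrain inhibitory neurons, with 10.4 kb.

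Of 19 genes of the Notch pathway, which lies upstream of many Hes and Hey genes, 8 (42.1%, 23.1 to 63.7) were marked, against 20.7% of all genes. Covered starts were found in 3 (15.8%, 5.52 to 37.6), against 4.45% of all genes. These were the ligand genes Dll1, Dll3 and Dll4, with widest peaks of 18.6, 8.50 and 5.54 kb. The receptor gene Notch3, the ligand gene Jag2 and the modulators Lfng, Dtx1 and Nrarp had peaks that left the start uncovered. The share in the pathway and that in the Hes and Hey class, 44.4%, lay within each other's intervals.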

How the data were processed

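H3K27me3 ChIP DNA and input DNA of primary rib chondrocytes were each sequenced once. Per the submitters' processing notes, CASAVA 1.8.4, Bowtie2 and MACS2 were used with build mm10, and per the file headers MACS 2.1.0.20140616 called broad peaks with a fragment length of 294 bp. The authors deposited, per peak, the pileup as a coverage signal, the fold enrichment as a ratio to input, and p- and q-values as −log10 values averaged over the peak, and this mean lies above the 0.05 cutoff for some peaks. They also deposited a table joining peaks to genes within 5 kb, whose tool was not given in the sources used here. MACS scaled the larger library to the smaller, and its broad mode links weaker stretches, which affects widths, gaps and mean fold enrichment.

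Symbols joined by semicolons were split. Of 4987 symbols, 4928 had an entry in the RefSeq gene table (GRCm38.p6), 148 through an older symbol. Gene starts followed the deposited strand and ends, and distances of unmarked genes followed the gene table. The deposited start lay 1 bp after that of the gene table in 1791 of 4926 symbols. Shares have 95% Wilson intervals, their difference a Newcombe interval and medians a binomial order-statistic interval. Every column belonged to this series. The functions were tested on simulated data. Analyses used Python 3.11.15, pandas 2.3.3, numpy 2.4.6 and scipy 1.17.1. All 57 genes are accounted for, and genes outside them are named from written lists or as neighbours. From the list of other bHLH genes, 1 gene is not reported here. The members, lists and promoters shown were chosen with earlier results of these data known. Alternatives were thresholds on peaks, the overlap that counts, gene positions and the treatment of neighbouring genes.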

Additional observations from a re-analysis of the deposited data

How the results depend on the processing

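Of 33 alternatives over the 6 main results, 20 stayed within the interval of the reported value and 13 moved out of it, and none turned the direction. Under a limit of 0.01 on the mean q-value, or of 3.5 or more on fold enrichment, the share of the 57 genes marked was 31.6%. The difference from the E protein and Id genes was 37.2 points (interval -0.476 to 52.1, which takes in 0), and the median widest peak was 20.3 kb. Of the other bHLH genes 12.8% (5.98 to 25.2) were marked, and 25.5% had a peak over the gene body. Over all protein-coding genes the shares were 5.9% under the q-value limit, 5.35% under the fold limit and 14.2% over the gene body. The share of the 57 genes marked was 38.6% when the peak had to cover the gene start, against 4.45% of all genes. The share of covered starts was 54.4% when a peak within 1 kb counted. The median fold enrichment was 3.62 under the limit of 0.01 on the mean q-value and 3.49 for peaks over a gene body. Both stricter thresholds keep fewer peaks by construction, and other causes were not tested. With a limit of 0.05 on the mean q-value the share of the 57 genes marked was 59.6%, against 16.4% of all genes. With gene table positions it was 63.2%, against 22% of all genes.

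There was no replicate to leave out, and the spread between cultures is unknown. Regions under a pileup of 9.86 fragments were not listed. No paired analysis was possible because the ChIP and the input library were the only ones and no test across samples was made.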

Other observations

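Some genes were marked only by 1 of the gene models. In the lists of other bHLH and Notch genes, 3 genes (Tcf24, Mxi1 and Mga, named after their values were seen) had a peak within 5 kb of the RefSeq gene but none in the deposited annotation. Among the 57 genes both sources gave the same 36.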
